A study of Glycine max with 4 samples.

Results

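Of the 110 soybean genes for fatty acid and triacylglycerol synthesis (FAT genes) that have a located GmWRI1 site, 4 encode ketoacyl-ACP synthase I or II. They are the *KASI* genes Glyma.08G084300, Glyma.05G129600 and Glyma.08G024700 and the *KASII* gene Glyma.17G047000. The genes were chosen by fold enrichment, the first pair for peaks among the strongest of the series and the other pair for weak peaks, so the values of that measure are a description. The peaks of the first pair were taken by position, as those overlapping chr8:6353289-6354970 and chr5:32273785-32274628, and those of the other pair as those over the sites that the study lists for these genes. With a second peak over another listed site of Glyma.05G129600, the 4 genes held 5 of 22982 peaks in replicate 1 and 7 of 20027 in replicate 2. The list of FAT genes has 6 genes with the symbol *KASI* and 3 with *KASII*, and those without a located site were not analysed here.

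GmWRI1 occupancy was mapped by sequencing immunoprecipitated chromatin (ChIP-Seq) from Williams 82 soybean embryos taken out of seeds of 6 to 7 mm, in early maturation (the em stage). The samples were 2 ChIP libraries and 2 input libraries of total chromatin, each pair being biological replicates by the series description. The antibody was raised against a peptide of GmWRI1-A (GLYMA.08G227700) and recognises both GmWRI1-A and GmWRI1-B, so occupancy by either protein cannot be told apart. Values come from the peak list of each ChIP library, called by the authors against input, and the inputs themselves were not analysed.

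Ketoacyl-ACP synthases are plastid enzymes that lengthen the acyl chain held on acyl carrier protein (ACP) during fatty acid synthesis. KASIII makes the first condensation of acetyl-CoA with malonyl-ACP, KASI extends the chain to palmitoyl-ACP, and KASII extends palmitoyl-ACP to stearoyl-ACP. WRI1, a member of the AP2 family of transcription factors, activates genes of late glycolysis and fatty acid synthesis in oil-storing seeds, and soybean, whose genome was duplicated more than once, encodes most of these enzymes by several gene copies.

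All 4 genes had a peak in both lists, at 2 very different strengths, and 105 of the 110 FAT genes with a located site had one. The intervals match the extent of listed peaks and the sites come from these very samples. That each gene had a peak is therefore not independent evidence. Fold enrichment was given by the authors as the reads over the local background at the summit, the position of the most reads within a peak. The peak that stands for a gene is called its leading peak, and is the strongest one in each list that overlapped the intervals or sites given above. At Glyma.08G084300 it had a fold enrichment of 43.8 in replicate 1 and 49.2 in replicate 2 (46.5 ± 3.84, mean ± SD, n = 2). At Glyma.05G129600 the values were 37.7 and 48.3 (43.0 ± 7.55, n = 2). Both genes had all their peaks in the strongest 5% of each list, which began at 14.8 in replicate 1 and at 18.4 in replicate 2. Glyma.08G024700 had 7.8 in replicate 1 and 4.77 in replicate 2 (6.29 ± 2.14, n = 2). *KASII* Glyma.17G047000 had 5.39 and 6.45 (5.92 ± 0.754, n = 2). These values lay above the medians of all peaks, 3.92 in replicate 1 and 4.71 in replicate 2, by least at Glyma.08G024700 in replicate 2. In each list the lower of the strongly occupied copies was far above the higher of the weakly occupied copies, and within each pair the order was not separated from the spread between replicates.

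Averaged over copies, the strongly occupied pair had a fold enrichment of 40.7 in replicate 1, against 6.59 for the weakly occupied pair, a ratio of 6.18. In replicate 2 the means were 48.8 and 5.61, a ratio of 8.69. Over both replicates the means were 44.8 and 6.1, a ratio of 7.33. The pairs were chosen for this difference, so it has no test.

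**Figure D1:**
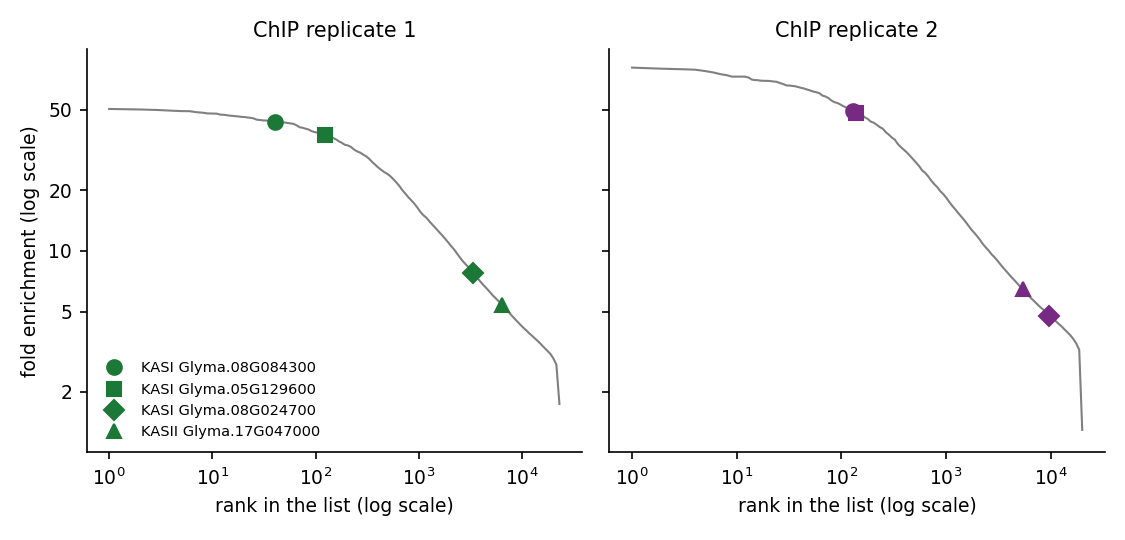
Fold enrichment (log scale) against rank in the list (log scale), with all peaks as a grey line and the leading peak of each gene as a symbol. In both lists Glyma.08G084300 and Glyma.05G129600 sit at ranks 40 to 137, whereas Glyma.08G024700 and Glyma.17G047000 sit at ranks 3345 to 9743.

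The rank in the list separated the pairs in the same way. The leading peak of Glyma.08G084300 ranked 40 in replicate 1 (top 0.174%) and 129 in replicate 2 (top 0.644%). That of Glyma.05G129600 ranked 124 (top 0.54%) and 137 (top 0.684%). Glyma.08G024700 ranked 3345 in replicate 1 (top 14.6%) but 9743 in replicate 2 (top 48.6%), near the middle of the list. *KASII* held nearly the same relative place in both lists by fold enrichment, at rank 6347 (top 27.6%) and 5400 (top 27.0%), but not by −log10 p, where it was in the top 20.3% of replicate 1 and 28.4% of replicate 2. Among the 105 FAT genes with a peak in both lists, the copies ranked 10 (Glyma.08G084300), 18 (Glyma.05G129600), 79 (Glyma.08G024700) and 82 (Glyma.17G047000) by mean fold enrichment. A peak in the top 5% of both lists was seen at 2 of the 4 genes, and in 3.45% of all regions of either list, a share from which nothing is read because strength chose the genes.

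Fold enrichment combines the reads at the summit with the local background, and both could be solved from the deposited values. Intervals are exact 95% Poisson intervals and cover counting error only. Glyma.08G084300 had 374 reads at the summit in replicate 1 (337 to 414) and 341 in replicate 2 (306 to 379). Glyma.05G129600 had 310 reads (276 to 347) and 252 (222 to 285). The highest counts of the lists were 420 reads in replicate 1 and 388 in replicate 2, above the intervals of both genes. Glyma.08G024700 had 67 reads (51.9 to 85.1) and 35 (24.4 to 48.7). Glyma.17G047000 had 72 reads (56.3 to 90.7) and 33 (22.7 to 46.3). The intervals of the weakly occupied genes overlapped each other in each list and lay far below those of the strongly occupied genes. The median peak had 37 reads in replicate 1 and 26 in replicate 2.

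The background did not separate the pairs in both lists. In replicate 1 it was 7.56 reads at Glyma.08G084300 and 7.26 at Glyma.05G129600, against 7.72 at Glyma.08G024700 and 12.5 at *KASII*. In replicate 2 it was 5.95 and 4.23 at the same strongly occupied genes, against 6.54 and 4.27 at the weakly occupied ones. The medians over all peaks were 8.19 in replicate 1 and 4.38 in replicate 2. The lowest background was 7.17 reads in replicate 1 and 3.8 in replicate 2, held by 11.9% and 10.1% of peaks. In replicate 1 the 3 *KASI* genes lay near that lowest value. After subtraction of the background, the strongly occupied pair held 335 reads in replicate 1, against 59.4 for the weakly occupied pair, a ratio of 5.64. In replicate 2 the difference was 291 against 28.6 reads, a ratio of 10.2. The ratio between pairs lay mainly in the reads. Without subtraction, the summit reads gave a ratio of 4.92 in replicate 1 and 8.72 in replicate 2, against 6.18 and 8.69 by fold enrichment. The mean background of the strongly occupied pair was 0.731 times that of the weakly occupied pair in replicate 1 and 0.942 times in replicate 2. In replicate 1 the lower background thus added to the ratio of fold enrichment.

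**Figure D2:**
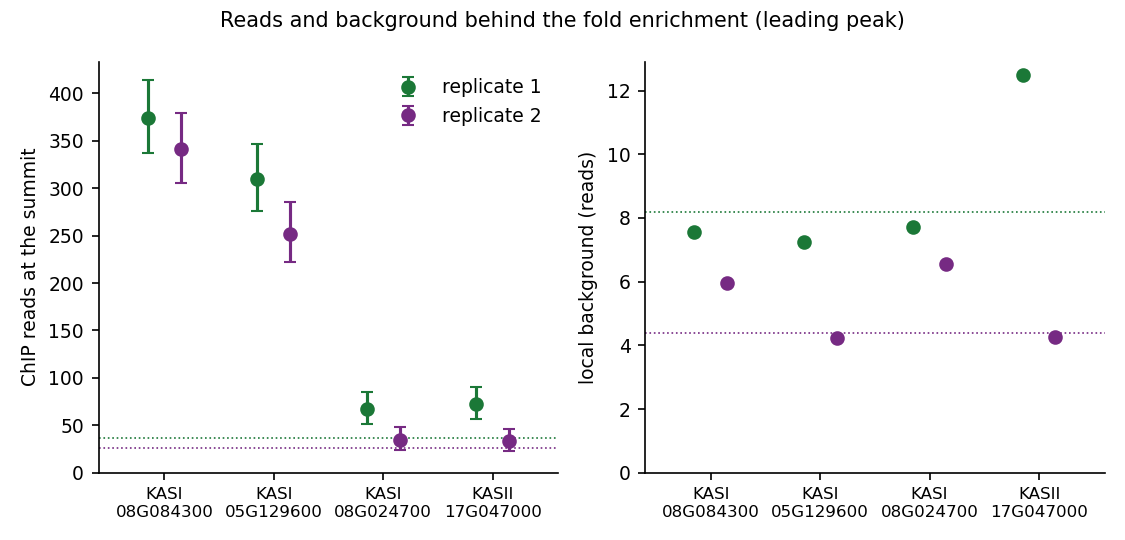
Reads at the summit of the leading peak with exact 95% Poisson intervals (left) and local background in reads (right) for the 4 genes, in replicate 1 (green) and replicate 2 (purple), with the median of all peaks of each list as a dotted line. The strongly occupied genes have 252 to 374 reads and the weakly occupied genes 33 to 72, while the highest background, 12.5 reads, is at *KASII* in replicate 1.

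The copies differed in how their reads carried over between the libraries. The reads of replicate 2 were 0.912 times those of replicate 1 at Glyma.08G084300 and 0.813 times at Glyma.05G129600, but 0.522 times at Glyma.08G024700 and 0.458 times at *KASII*. The median over the 15181 regions with a peak in both lists was 0.651, and over the strongest 10% of these regions 0.697. A ratio below the 0.813 of Glyma.05G129600 was found in 89.1% of these regions and one below the 0.522 of Glyma.08G024700 in 11.7%. By these values the strong copies lay toward the upper end and the weak copies toward the lower end. The weak ratios rest on few reads, 67 and 35 at Glyma.08G024700 and 72 and 33 at *KASII* in replicates 1 and 2. Counting error of the ratios was not computed, and their difference from the median was not tested. The background of replicate 2 was 0.583 times that of replicate 1 at Glyma.05G129600, near the median of 0.533. It was 0.786 at Glyma.08G084300 and 0.847 at Glyma.08G024700. At *KASII* the ratio was 0.34, and 3.33% of regions with a peak in both lists had a lower one. As a result the fold enrichment of *KASII* was 1.2 times as high in replicate 2 as in replicate 1, close to the median of 1.13, although its reads were fewer by more than the median. For Glyma.08G084300 the ratio was 1.12 and for Glyma.05G129600 1.28. Glyma.08G024700 went the other way with 0.612, below the central 90% of regions (0.731 to 1.74), and 1.36% of regions with a peak in both lists had a lower ratio. By fold enrichment this *KASI* gene was therefore the member least alike in the libraries, whereas by reads above background its ratio of 0.48 was close to the 0.483 of *KASII*.

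The peaks at the strongly occupied genes were laid out as pairs, at Glyma.08G084300 in replicate 2 only. In replicate 2 Glyma.08G084300 had a peak at chr8:6353327-6353945 with its summit at 6353599 and a second at chr8:6354173-6354952 with its summit at 6354422, and the second had a fold enrichment of 47.6 and 258 reads (227 to 291). The summits were 823 bp apart and 227 bp separated the peaks. In replicate 1 a single peak of 1682 bp at chr8:6353289-6354970 spanned both positions, with its summit at 6353608. The list gives 1 summit to each peak, so whether this wide peak has a second summit cannot be read from it. The study lists 1 site at this gene, at chr8:6353550-6353651, over the first peak.

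Glyma.05G129600 showed the same arrangement in both libraries. In replicate 1 its leading peak at chr5:32273790-32274628 had its summit at 32274079, and a second peak at chr5:32272670-32273512 had its summit at 32273204, a fold enrichment of 38.2 and 321 reads (287 to 358). In replicate 2 the leading peak at chr5:32273785-32274564 had its summit at 32274083, and the second at chr5:32272734-32273483 had its summit at 32273203, a fold enrichment of 39.2 and 248 reads (218 to 281). The summits were 875 bp apart in replicate 1 and 880 bp apart in replicate 2, with 277 and 301 bp between the peaks. The peaks of this gene were thus nearly equal in replicate 1, where the second was slightly the stronger, and 48.3 against 39.2 in replicate 2. Both coincide with sites that the study lists, whose centres lay within 5.5 bp of the summits.

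The weakly occupied genes had single peaks, except for *KASII* in replicate 2. Glyma.08G024700 had a peak at chr8:1954892-1955376 with its summit at 1955130 in replicate 1 and at chr8:1954862-1955325 with its summit at 1955076 in replicate 2. Glyma.17G047000 had a peak at chr17:3531808-3532159 with its summit at 3531999 in replicate 1 and at chr17:3531876-3532196 with its summit at 3532009 in replicate 2. In replicate 2 only, *KASII* had a further peak at chr17:3531079-3531417, 744 bp from the other summit, with 25 reads (16.2 to 36.9) over a background of 4.14 and a fold enrichment of 5.06. The study lists a site at each of the 2 *KASII* positions. No peak of replicate 1 overlapped this further site, and since the list holds only peaks past its threshold, a weaker signal there would not be listed. Of the 6 sites listed for the 4 genes, 5 had a peak in both lists, and 58.1% of all regions of either list did. The sites come from these very samples, so that this count is not independent evidence.

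**Figure D3:**
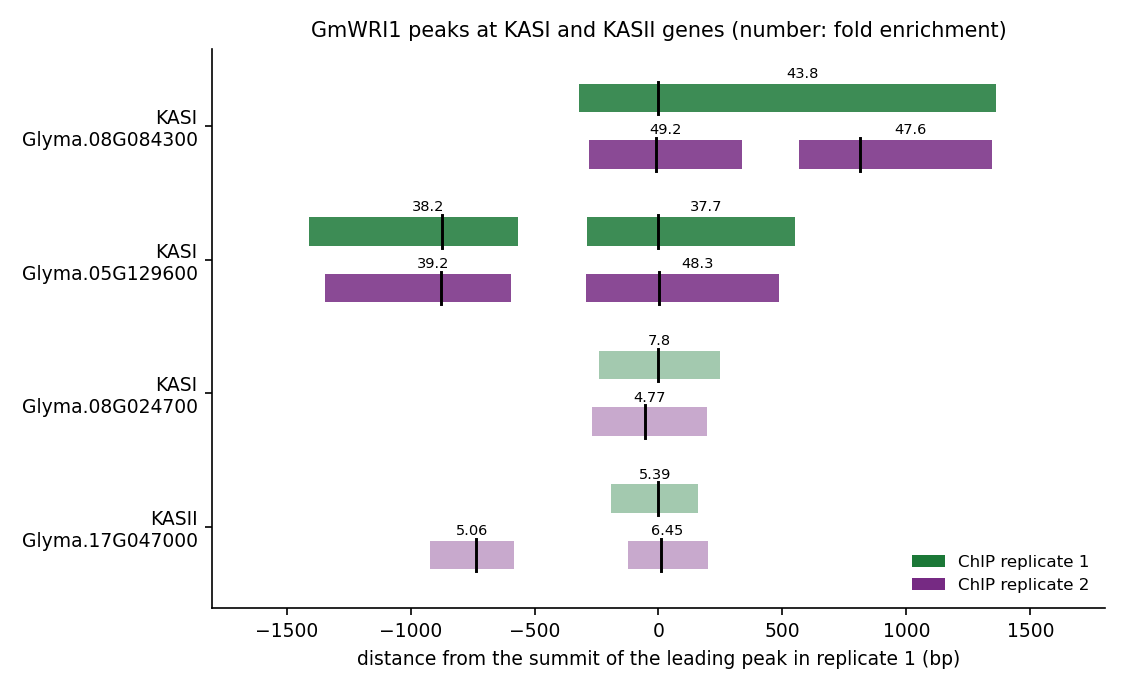
Peaks of replicate 1 (green) and replicate 2 (purple) at the 4 genes, drawn to scale as distance in bp from the summit of the leading peak of replicate 1, with summits as black ticks and fold enrichment as numbers. Full colour marks the strongly occupied genes and pale colour the weakly occupied genes. Summits 823 to 880 bp apart appear at both strongly occupied genes, but at Glyma.08G084300 in replicate 2 only. In replicate 1 the single peak of 1682 bp at Glyma.08G084300 has 1 listed summit.

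Pairs of strong peaks at such a distance were rare in the lists. A second summit of any strength within 1 kb was found for 18.8% of the peaks of replicate 1 and 21.0% of those of replicate 2, and in the strongest 10% of the lists for 6.48% and 7.19%. Of the peaks in the top 5%, only 0.348% in replicate 1 (4 of 1150) and 0.4% in replicate 2 (4 of 1001) had another top 5% summit within 1 kb. These were 2 pairs in each list. In replicate 2 both pairs were at the *KASI* genes, Glyma.08G084300 and Glyma.05G129600. In replicate 1 the pair at Glyma.05G129600 was the stronger of the 2, by its weaker peak. A wide signal that the list gives as 1 peak, as at Glyma.08G084300 in replicate 1, is not in these counts. The comparison with all strong peaks was chosen after the values of these genes were seen, and has no test.

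Width went with strength. The leading peak of Glyma.08G084300 was 1682 bp wide in replicate 1 and 619 bp in replicate 2, and that of Glyma.05G129600 was 839 and 780 bp. Glyma.08G024700 had 485 and 464 bp, and *KASII* 352 and 321 bp. The widest of the weak peaks was therefore narrower than the narrowest of the strong ones. The mean of the strongly occupied pair was 1260.5 bp in replicate 1, against 418 bp for the weakly occupied pair, a ratio of 3.01. In replicate 2 the means were 700 and 392 bp, a ratio of 1.78. The larger ratio included the wide peak at Glyma.08G084300, than which 3.05% of the peaks of replicate 1 were wider.

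Set beside peaks of like strength, the widths were less distinct. Within the 10% band of the list that held each peak by rank, the median width was 765 bp in replicate 1 and 754 bp in replicate 2 for the strongly occupied genes. Glyma.05G129600 lay above both medians, and Glyma.08G084300 above the first but below the second, where it had 2 peaks. *KASII* was narrower than the median of its own 10% in both lists, with 352 against 540 bp in replicate 1 and 321 against 481 bp in replicate 2. Glyma.08G024700 was narrower than that median in replicate 1, with 485 against 596 bp, and wider in replicate 2, with 464 against 354 bp. Width was not used to choose the genes, but 4 genes in 2 libraries allow no exact test below 0.05.

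With the widths of all peaks of a gene added up, the strong copies had similar totals. In replicate 1 the peaks of Glyma.08G084300 and of Glyma.05G129600 each covered 1682 bp, in 1 and 2 peaks. These equal totals are unlike measures. The single peak of Glyma.08G084300 includes the stretch between the summit positions, whereas the 277 bp between the peaks of Glyma.05G129600 are left out. In replicate 2 they covered 1399 and 1530 bp. The weakly occupied genes covered 485 bp (Glyma.08G024700) and 352 bp (*KASII*) in replicate 1, and 464 and 660 bp in replicate 2.

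The leading summits of the 2 libraries lay close together at 3 of the 4 genes. The distance was 9 bp at Glyma.08G084300 and 4 bp at Glyma.05G129600, against 54 bp at Glyma.08G024700 and 10 bp at *KASII*. The median over regions with a peak in both lists was 40 bp, and it was 12 bp in the strongest 10% of them and 35.5 bp in the 10% band to which both weakly occupied genes belonged. Both strongly occupied genes thus had smaller distances than both weakly occupied genes, but the gap between Glyma.08G084300 and *KASII* was that of 9 against 10 bp. At *KASII*, 81.5% of regions with a peak in both lists had summits farther apart. Glyma.08G024700 was the exception, with 41.1% of regions farther apart, and its summits lay on opposite sides of the centre of the listed site, by 32.5 bp in replicate 1 and 21.5 bp in replicate 2. All 4 distances were within 100 bp, as were those of 76.1% of regions with a peak in both lists.

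The overlap of the leading peaks was lowest as a share of a peak at Glyma.08G084300, where 619 bp were shared, 100% of the peak of replicate 2 but 36.8% of the wide peak of replicate 1. At Glyma.05G129600 the 775 bp shared were 92.4% of the peak of replicate 1 and 99.4% of that of replicate 2. At Glyma.08G024700 the 434 bp were 89.5% and 93.5%, and at *KASII* the 284 bp were 80.7% and 88.5%.

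No peak of another locus lay within 10 kb of the leading summits of the 4 genes, although such peaks lay within 20 kb. Every other peak within 10 kb of a leading summit was the gene's own second peak, which gave 1 such peak in replicate 1 (Glyma.05G129600) and 3 in replicate 2 (Glyma.08G084300, Glyma.05G129600 and *KASII*). No other peak of any kind lay within 10 kb at 3 genes in replicate 1 and at 1 gene in replicate 2, as for 32.4% of all peaks of replicate 1 and 35.6% of those of replicate 2. The nearest peak of another locus was weak at the strongly occupied genes. At Glyma.08G084300 it lay 14.8 kb away with a fold enrichment of 3.54 in replicate 1 and 54.1 kb away with 5.73 in replicate 2. At Glyma.05G129600 it lay 15.2 kb away with 3.5 in replicate 1 and 15.3 kb away with 4.17 in replicate 2.

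The weakly occupied genes had neighbours at like distances. At *KASII* the nearest lay 11.9 kb away with a fold enrichment of 4.43 in replicate 1 and 54.3 kb away with 3.53 in replicate 2. At Glyma.08G024700 the nearest lay 14.7 kb away with 2.48 in replicate 1 and 15.1 kb away with 3.21 in replicate 2. On its other side a peak of replicate 2 at 16.4 kb reached 14.5, more than the 4.77 of the gene's own peak, so that Glyma.08G024700 was not the strongest peak of its neighbourhood in that library.

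The other enzymes of acyl chain synthesis give the setting of these values. The list held the FAT genes with a located site for KASI, KASII, KASIII, ketoacyl-ACP reductase (KAR), hydroxyacyl-ACP dehydratase (HAD), enoyl-ACP reductase (ENR) and malonyl-CoA:ACP malonyltransferase (MCMT), which supplies malonyl-ACP. Of its 18 genes, 17 had a peak in both lists and 13 had one in the top 5% of both. Of the 105 FAT genes with a located site and a peak in both lists, 62 had one in the top 5% of both. The sites come from these very samples, so these counts are not independent evidence. Among all 15181 regions with a peak in both lists, the share in the top 5% of both was 5.94%. The median fold enrichment over the 17 genes was 35.0, and over all those regions 5.03. Without the 4 members, 11 of 13 genes were in the top 5% of both lists, with a median of 35.0 and a range of 7.18 to 47.3. No gene had a mean between 10 and 20. The strong *KASI* genes fell among the 13 genes above 20, and Glyma.08G024700 and *KASII* among the 4 below 10.

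Of the other condensing enzyme, KASIII, Glyma.18G211400 had a fold enrichment of 31.2 and 38.7 in replicates 1 and 2 (35.0 ± 5.35, n = 2) and Glyma.09G277400 29.6 and 36.1 (32.9 ± 4.59, n = 2). The third *KASIII* gene, Glyma.15G003100, had a peak in replicate 1 only, with 5.05, 45 reads and a background of 8.11. KASIII thus had strongly and weakly occupied copies, as KASI did. In each list both strong *KASI* genes lay above both strong *KASIII* genes. The single *KASII* gene with a located site was weakly occupied, so no strongly occupied *KASII* copy was among the genes analysed.

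The reductases and the dehydratase complete the cycle. The *KAR* genes had 45.1 ± 7.44 (Glyma.11G248000) and 40.7 ± 3.72 (Glyma.18G009200, n = 2 each), overlapping the values of the strong *KASI* genes. The *HAD* genes had 47.3 ± 11.8 (Glyma.08G179900) and 39.3 ± 3.94 (Glyma.15G052500), against 7.18 ± 0.596 for Glyma.08G073900. The *ENR* genes, for the last reduction of each round, had 35.7 ± 14.4 (Glyma.11G101400), 31.8 ± 12.3 (Glyma.12G027300), 26.9 ± 5.03 (Glyma.08G345900) and 21.1 ± 2.27 (Glyma.18G156100), all below both strong *KASI* genes by their means. The *MCMT* genes had 40.6 ± 10.3 (Glyma.18G057700) against 7.36 ± 1.72 (Glyma.11G164500). The split into strongly and weakly occupied copies was therefore seen for KASI, HAD and MCMT, for KASIII with a weak copy in replicate 1 only, and not for KAR and ENR, whose located copies were all strong. With the SDs of 2 replicates, the order among the genes with means near 40 and above is not resolved.

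**Figure D4:**
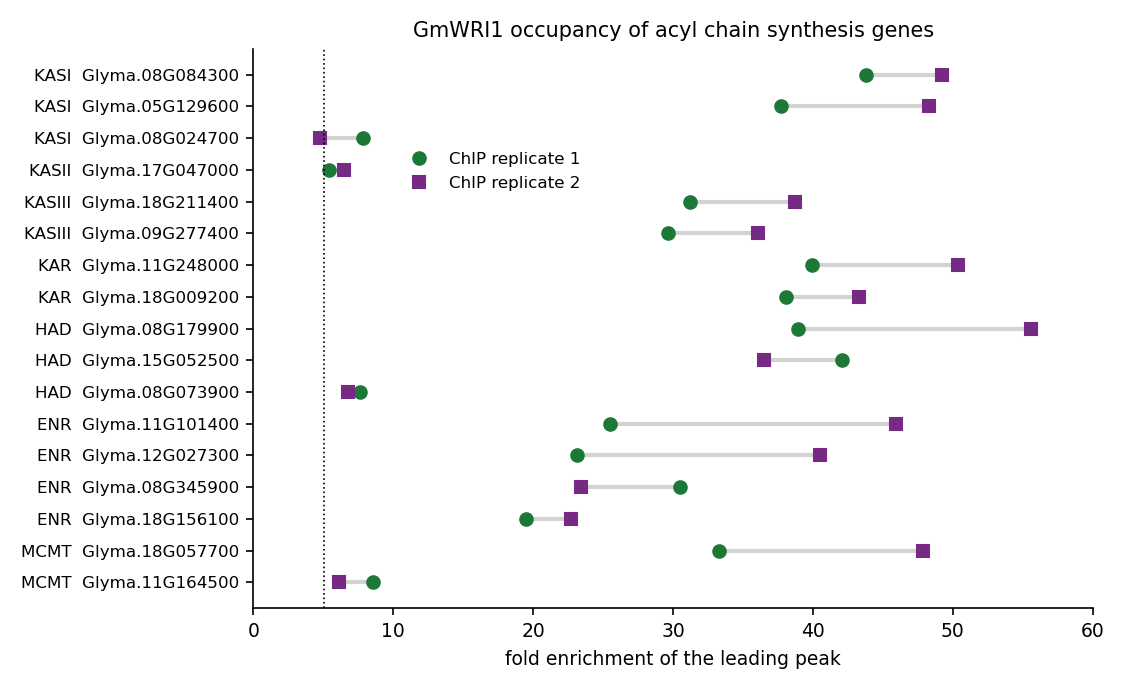
Fold enrichment of the leading peak in replicate 1 (green circle) and replicate 2 (purple square) for the 17 acyl chain genes with a peak in both lists, with a grey bar joining the replicates and a dotted line at 5.03, the median of all regions with a peak in both lists. The upper 4 rows are the members, 2 at 37.7 to 49.2 and 2 at 4.77 to 7.8, and no gene of any enzyme has a mean between 10 and 20.

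The paired layout was not listed at the other acyl chain genes, but the lists give 1 summit to each peak. A wide peak that spans 2 summit positions would count as unpaired here. Wide leading peaks were present among these genes, as at *KASIII* Glyma.09G277400 with 1094 bp in replicate 1 and 1196 bp in replicate 2. A second summit within 1 kb of the leading one was present at Glyma.05G129600 in replicate 1 and at Glyma.08G084300, Glyma.05G129600 and *KASII* in replicate 2, but at 0 of the 13 other genes in either list. Among all 105 FAT genes with a peak in both lists there were 9 such genes in replicate 1 and 10 in replicate 2, of which 3 were so in both. Glyma.05G129600 was 1 of these 3, and of the 62 FAT genes in the top 5% of both lists it was the only one paired in both libraries. With 4 members against 13 genes, and a feature noted after it was seen, the difference was not tested.

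Outside this list, the FAT genes closest to each member in the pair of log2 fold enrichments were named, with the distance between them over 2 samples as the measure. For Glyma.08G084300 these were a pyruvate kinase family gene, Glyma.10G178900 (43.4 and 51.2, distance 0.057), and the plastidic pyruvate kinase beta subunit gene Glyma.09G126300 (42.9 and 44.5, distance 0.149). For Glyma.05G129600 they were the biotin carboxylase gene Glyma.08G027600 (37.9 and 48.1, distance 0.013) and an aldolase superfamily gene, Glyma.17G138600 (38.3 and 49.8, distance 0.05). For Glyma.08G024700 they were the stearoyl-ACP desaturase gene Glyma.02G138100 (*FAB2*, 8.27 and 5.97, distance 0.333) and the phosphoglycerate kinase gene Glyma.13G045400 (6.04 and 5.42, distance 0.411). For *KASII* they were the sterol 4-alpha-methyl-oxidase gene Glyma.01G035100 (5.82 and 6.5, distance 0.112) and again Glyma.13G045400 (distance 0.301). Neighbours of the weak *KASI* gene were farther away than those of the other members, and values over 2 samples cannot order such distances beyond replicate error.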

How the data were processed

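ChIP and input libraries of em-stage embryos were grouped by their labels (2 samples each). The submitters' processing notes name Bowtie 0.12.7 and MACS2 (version not given in the sources used here), whereas the methods of the study name MACS3. Peak names carry a q threshold of 0.01. How duplicate reads, or reads matching more than 1 gene copy, were treated is not stated for these lists. The authors called peaks per sample. The deposited fold enrichment is the authors' ratio of summit reads to local background, with the values matching a pseudocount of 1 added to each. The deposited lists also hold −log10 p and −log10 q, a display score (not used) and the summit offset. Coordinates are 1-based. The build, Wm82.a2.v1, is that of the annotation the study gives for its genes. Where the peaks lie within the genes was not analysed here.

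Whole summit reads and background were solved from fold enrichment and −log10 p (tolerance 0.001) for 100% of peaks. The solving step was tried on simulated data made with the same formula. Such data cannot show whether the deposited values follow that formula, and their backgrounds did not reach the lowest of replicate 2. Library totals were not used, so depth is given as reads at summits. Overlapping peaks of both lists (at least 1 bp) were merged into regions. For other genes, the strongest peak over any listed site was taken in each list separately, where both lists had one. The 119 sites in 110 FAT genes listed by the study served only as links from position to gene. Genes to be named were the members, the other acyl chain genes and, for each member, the 2 FAT genes nearest in log2 fold enrichment. The members and lists were chosen with earlier results of these data known. No test was made, since strength chose the members. Alternatives covered the measure of strength, window, overlap, thresholds and each replicate left out. A motif search and a protein comparison, foreseen in the design, were not made here, and no genome or protein sequence was used. Computations used Python 3.11.15, numpy 2.4.6, pandas 2.3.3 and scipy 1.17.1.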

Additional observations from a re-analysis of the deposited data

How the results depend on the processing

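Of 40 alternative values, 9 moved by more than the spread between replicates, or by more than 1.5 times for counts and distances. With 2 replicates, leaving 1 out cannot move a mean beyond that spread, so those values are given as ranges only and say nothing of stability. The ratio of strongly over weakly occupied copies was 7.33 by fold enrichment, 7.12 by reads above background and 17.6 by −log10 q, which grows with the number of reads. Ranked by −log10 p or by −log10 q, Glyma.05G129600 lay in the top 0.895% (0.612% by fold enrichment) and Glyma.17G047000 in the top 24.3% (27.3%). With the nearest summits of any peaks, the distance at Glyma.05G129600 was 1 bp in place of 4 bp. Other peaks within 10 kb, summed over the 4 genes, averaged 2.0 a list, 7.5 within 20 kb, and 1.0 to 3.0 with 1 replicate left out. In the top 1% of both lists there were 5 acyl chain genes, against 13 in the top 5%. With 1 replicate left out, the ratio of fold enrichment ranged from 6.18 to 8.69, the ratio of width from 1.78 to 3.01, and the fold enrichment from 43.8 to 49.2 (Glyma.08G084300), 37.7 to 48.3 (Glyma.05G129600), 4.77 to 7.8 (Glyma.08G024700) and 5.39 to 6.45 (Glyma.17G047000). No paired analysis was possible because no result comes from a test and only the 2 ChIP samples have peak lists. Summits with 33 to 72 reads limit the values of the weakly occupied genes more than those of the strongly occupied ones.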
